A study of Mus musculus with 20 samples.

Results

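The genes described here are 10 transcripts of the ATF4 arm of the integrated stress response, read in RNA-seq counts from the mouse hepatoma line Hepa-1. They are Atf4, Ddit3, Ppp1r15a, Trib3, Chac1, Ddit4, Sesn2, Asns, Mthfd2 and Psat1, taken by their Entrez gene IDs from a table of 23373 IDs. All 10 passed the filter on low counts, as did 14343 IDs in all. Hepa-1 is a liver tumour line in which benzo[a]pyrene (B[a]P), a combustion product, induces Cyp1a1 through the aryl hydrocarbon receptor. The libraries form 10 groups of 2, and every group received either B[a]P or its solvent DMSO for 8 hours. At passage 20 the cells had grown with hexavalent chromium, Cr(VI), or without it (control-grown). At passage 25 there were recovered cells, which had spent 20 passages with Cr(VI) and then 5 without, Cr(VI)-grown cells and control-grown cells. By the labels, Cr(VI) was at 0.5 mM and B[a]P at 5 mM, but the title of the series calls both concentrations low. The units could therefore not be checked, and no calculation used them. Sample titles of the later set read 27 where the passage label reads 25. Nothing in the labels says whether duplicates were separate cultures, so every p-value here measures only the spread between these libraries. All groups are of this single line.

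Stress kinases phosphorylate the translation factor eIF2, which slows protein synthesis as a whole and favours translation of a few messenger RNAs, ATF4 among them. ATF4 is a transcription factor that pairs with C/EBP family members and turns on genes for amino acid import, amino acid and folate metabolism, and feedback control. In liver-derived cells the pathway is known for its response to amino acid shortage, heme shortage, oxidants and misfolded protein. Since ATF4 is controlled largely through translation, the amount of its messenger RNA does not measure ATF4 protein.

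To show what the promoters of these genes look like, the 250 bases before the RefSeq start (GRCm38.p6) were searched on both strands for 3 motifs. These were TGATGNAA, a core of the C/EBP-ATF response element, the looser TGNNGCAA, which joins part of an ATF site to part of a C/EBP site, and the cAMP response element TGACGTCA. The looser motif was chosen after the promoters had been seen, and it overlaps the first where N is C. Among 32851 such windows of the mouse table, TGATGNAA was in 3.45%, TGNNGCAA in 9.59% and TGACGTCA in 1.55%. All 10 genes had a window, and Psat1 had a second one with no match. TGATGNAA was found in the windows of Asns and Chac1, TGNNGCAA in those of Trib3, Chac1, Sesn2 and Psat1, and TGACGTCA in that of Ppp1r15a. The windows of Atf4, Ddit3, Ddit4 and Mthfd2 held none of these letters. The windows of 6 genes that the results turn on are printed here, read 5′ to 3′ along the gene's strand, with matches in capitals. Ddit4 is at chr10:59951771-59952020 (minus strand), Sesn2 at chr4:132510457-132510706 (minus), Ppp1r15a at chr7:45526269-45526518 (minus), Trib3 at chr2:152344061-152344310 (minus), Chac1 at chr2:119350992-119351241 (plus) and Asns at chr6:7693210-7693459 (minus).
Ddit4: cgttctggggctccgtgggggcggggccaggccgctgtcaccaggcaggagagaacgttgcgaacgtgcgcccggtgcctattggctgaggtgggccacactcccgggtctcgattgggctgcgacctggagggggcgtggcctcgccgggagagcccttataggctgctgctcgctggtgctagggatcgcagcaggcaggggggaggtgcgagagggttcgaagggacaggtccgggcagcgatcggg
Sesn2: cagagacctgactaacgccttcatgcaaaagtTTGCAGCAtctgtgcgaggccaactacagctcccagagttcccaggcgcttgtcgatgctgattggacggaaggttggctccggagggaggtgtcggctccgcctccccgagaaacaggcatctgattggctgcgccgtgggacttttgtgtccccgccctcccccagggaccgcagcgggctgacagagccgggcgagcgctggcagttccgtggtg
Ppp1r15a: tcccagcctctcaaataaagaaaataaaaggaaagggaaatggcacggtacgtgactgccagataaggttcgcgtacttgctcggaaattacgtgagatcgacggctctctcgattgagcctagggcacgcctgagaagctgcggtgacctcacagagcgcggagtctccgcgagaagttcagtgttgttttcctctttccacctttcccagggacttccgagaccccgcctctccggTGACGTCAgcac
Trib3: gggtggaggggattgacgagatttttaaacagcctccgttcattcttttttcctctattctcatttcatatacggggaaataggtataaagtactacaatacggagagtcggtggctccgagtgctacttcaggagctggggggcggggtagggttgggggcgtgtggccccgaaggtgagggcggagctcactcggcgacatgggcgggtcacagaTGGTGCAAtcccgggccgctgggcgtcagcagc
Chac1: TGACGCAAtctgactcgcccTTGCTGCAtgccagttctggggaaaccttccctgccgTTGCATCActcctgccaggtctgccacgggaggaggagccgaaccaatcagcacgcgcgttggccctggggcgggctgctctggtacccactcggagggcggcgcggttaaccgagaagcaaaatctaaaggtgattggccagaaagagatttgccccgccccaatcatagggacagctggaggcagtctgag
Asns: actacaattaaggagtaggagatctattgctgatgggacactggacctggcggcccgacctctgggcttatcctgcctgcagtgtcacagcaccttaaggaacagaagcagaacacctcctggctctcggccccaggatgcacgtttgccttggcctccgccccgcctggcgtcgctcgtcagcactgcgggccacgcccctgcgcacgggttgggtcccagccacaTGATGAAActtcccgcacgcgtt

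The match in Asns lay 23 to 16 bases before the start and read TGATGAAA. The match in Trib3 lay 33 to 26 bases before it and read TGGTGCAA. In Ppp1r15a the cAMP response element lay 12 to 5 bases before the start, and in Sesn2 TGCTGCAA lay on the other strand, 218 to 211 bases before it. Chac1 held 3 match positions, of which TGATGCAA, on the other strand 193 to 186 bases before the start, fits both of the first motifs. These matches describe letters in a window and say nothing about binding in these cells.

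Total counts per library were 20976045 to 37930720. Within passage 25, replicate 1 and replicate 2 libraries stood apart. Summed markers of hepatocyte or hepatoma cells came to 6151 to 8791 CPM in the 6 replicate 2 libraries, against 1643 to 4526 CPM in the 6 replicate 1 libraries and 2054 to 2714 CPM at passage 20. Macrophage markers came to 20.1 to 59.4 CPM and endothelial markers to 0.0854 to 1.37 CPM over the 20 libraries, and no marker in these lists was at 0 in every library. A few genes made up most of these sums. At passage 25 Csf1r was at 18.0 to 53.9 CPM, while the macrophage markers Ptprc and Adgre1 reached only 0.0457 and 0.343 CPM. The hepatocyte sum came largely from Alb and Trf, and Hnf4a, Apoa1 and Ttr reached only 0.160, 0.0249 and 1.83 CPM. Control-grown DMSO duplicates of passage 20 were close to sampling noise (chi-square per degree of freedom 2.76 over 13028 genes), whereas the other 9 groups gave 14.5 to 860. At passage 25 the replicate numbers paired the libraries, so differences there are also given for each pair of equal number. The Cr(VI)-grown B[a]P duplicates of passage 25 correlated at only 0.886 with each other, while correlations between duplicates were 0.905 to 0.995 in the other groups. Cyp1a1 was at 930 to 2089 CPM in all 10 B[a]P libraries, against 25.1 to 62.4 CPM in the 10 DMSO libraries.

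Per length, the most abundant of these transcripts in control-grown DMSO cells of passage 20 was Psat1, which encodes the aminotransferase of serine synthesis, at 84.8 ± 0.2 CPM per kilobase of exon (SD, n = 2 here and below). Atf4 followed at 65.1 ± 0.83 CPM per kilobase. Asns (28.4 ± 0.7) and Ddit3 (28.4 ± 2.3) could not be told apart. Ddit4 was at 22.4 ± 1.5, Mthfd2 at 17.0 ± 0.93, Ppp1r15a at 14.2 ± 0.48 and Trib3 at 14.2 ± 0.83 CPM per kilobase, and the last pair did not differ beyond its spread. Sesn2 was at 6.93 ± 0.0015 and Chac1 lowest at 2.28 ± 0.012 CPM per kilobase. Together the 10 genes took 0.0694% to 0.224% of all counts in a library.

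**Figure D1:**
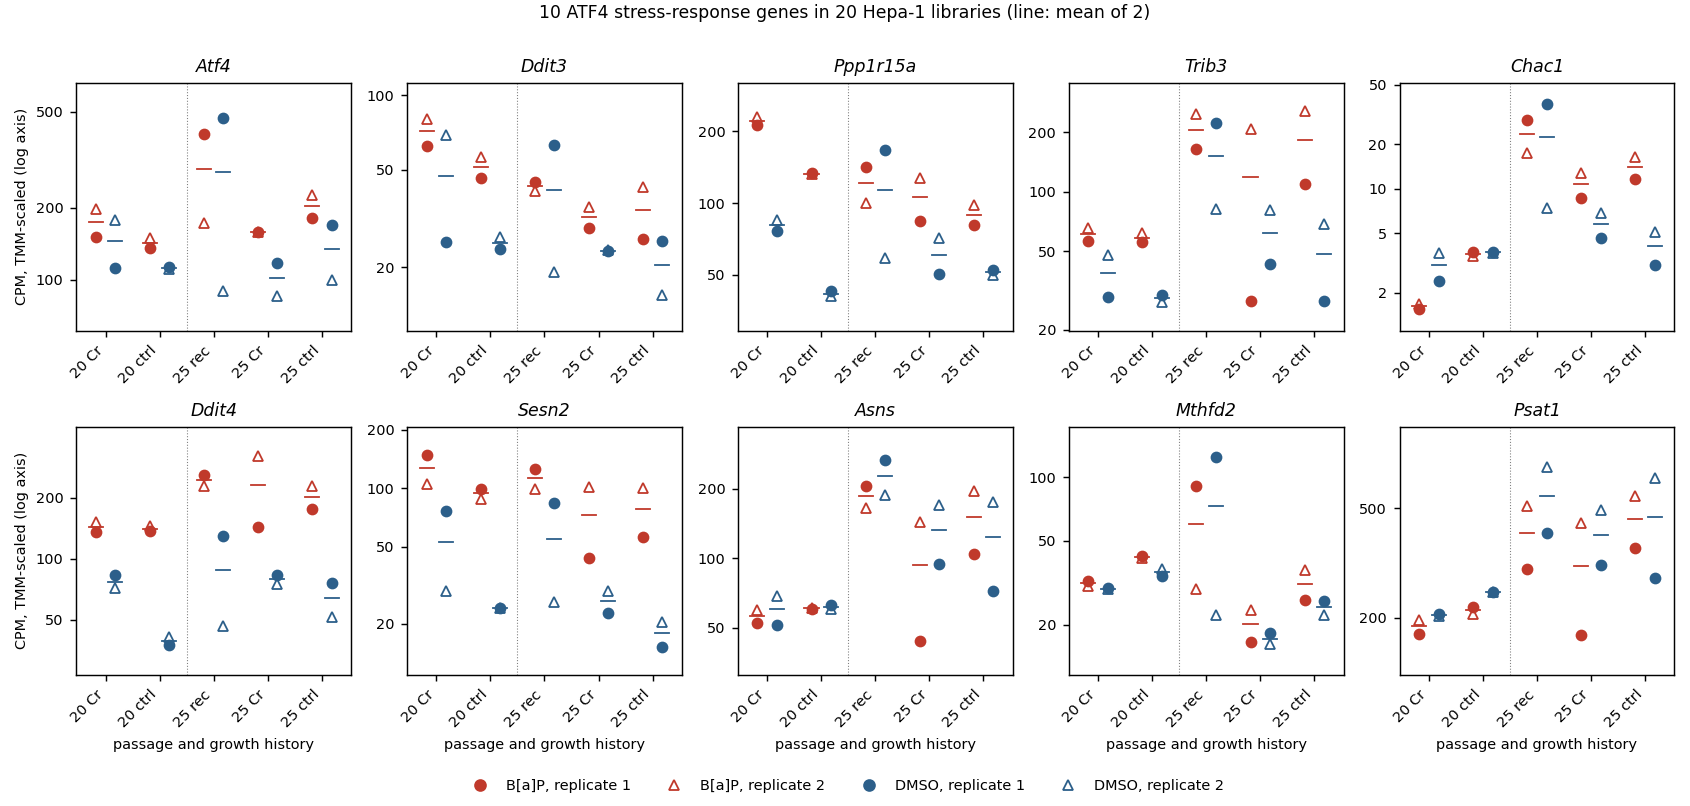
Read counts scaled to library size (CPM, TMM-scaled, log axis) of the 10 genes in every library, with B[a]P in red and DMSO in blue, replicate 1 as filled circles and replicate 2 as open triangles, and lines at the mean of 2. Groups run by passage and growth history (rec, recovered; Cr, grown with Cr(VI); ctrl, control-grown), and for Atf4, Chac1, Asns and Mthfd2 the highest library is the recovered DMSO replicate 1, at 473 CPM for Atf4 with 89.8 CPM in replicate 2.

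B[a]P was compared with DMSO in control-grown cells first, to give the response that the other growth histories are set against. The growth-control genes Ddit4 and Sesn2 and the phosphatase subunit Ppp1r15a rose, whereas Atf4 itself and the enzymes Asns, Mthfd2 and Psat1 did not pass the test. In edgeR's quasi-likelihood test with Benjamini-Hochberg adjustment over 14343 genes, 3 of 10 members rose and none fell over both passages, where 2.2% of all genes were called. The median log2 fold change of the members was 0.88, with 9 of 10 above 0, and that of all genes was -0.025, with 47.6% above 0.

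Ddit4 encodes REDD1, an inhibitor of the growth kinase complex mTORC1, and is also a known target of p53. Under B[a]P it had 137 and 145 CPM at passage 20 and 175 and 229 CPM at passage 25, against 37.5 and 41.2 CPM and 76.3 and 51.6 CPM under DMSO. The groups did not overlap at either passage, and the log2 fold change over both was 1.75 ± 0.32 (SE, edgeR adjusted p = 0.0134). Sesn2 encodes a leucine-binding inhibitor of mTORC1 that p53 also induces. It had 99.6 and 88.5 CPM under B[a]P at passage 20 and 56.2 and 99.97 CPM at passage 25, against 24.1 and 24.1 CPM and 15.3 and 20.6 CPM under DMSO. Every B[a]P library lay above every DMSO library, at log2 2.04 ± 0.42 (edgeR adjusted p = 0.0242). Ppp1r15a (GADD34) directs a phosphatase to eIF2 and so ends the response. Its levels under B[a]P were 134 and 132 CPM at passage 20 and 80.8 and 97.9 CPM at passage 25, against 42.7 and 40.7 CPM and 52.4 and 50.1 CPM under DMSO. Again the groups did not overlap, with log2 1.24 ± 0.29 (edgeR adjusted p = 0.0459), 1.67 ± 0.42 at passage 20 and 0.80 ± 0.41 at passage 25. The difference of the last pair of values did not pass its own test (log2 -0.87 ± 0.57, edgeR adjusted p near 1). No omission of 1 library kept all 3 calls. Without any 1 of the 4 passage 20 libraries or either replicate 2 library of passage 25, all 3 were lost, with log2 fold changes of 1.62 to 1.79 for Ddit4, 1.81 to 2.16 for Sesn2 and 1.17 to 1.25 for Ppp1r15a. Ddit4 alone passed without the DMSO replicate 1 library of passage 25 (Sesn2 1.95, Ppp1r15a 1.26), and Ddit4 and Sesn2 without the B[a]P replicate 1 library (Ppp1r15a 1.30).

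Trib3, a pseudokinase that restrains ATF4 and CHOP, did not pass at log2 1.47 ± 0.55 (edgeR adjusted p = 0.271). It had 55.4 and 61.7 CPM under B[a]P at passage 20 and 109 and 256 CPM at passage 25, against 30.0 and 27.6 CPM and 27.9 and 69.1 CPM under DMSO. Within each passage both B[a]P libraries lay above both DMSO libraries, and with the replicate number as a block at passage 25 Trib3 passed (log2 1.48, adjusted p = 0.0345). In that fit, chosen after the data had been seen, 4 of 10 members rose where 15.3% of all genes were called.

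Chac1, which breaks down glutathione, behaved differently at the 2 passages without a difference that passed its test. At passage 20 it had 3.78 and 3.51 CPM under B[a]P, against 3.75 and 3.72 CPM under DMSO. At passage 25 it had 11.7 and 16.4 CPM under B[a]P, against 3.05 and 5.15 CPM under DMSO. The log2 fold changes were -0.035 ± 0.58 at passage 20 and 1.78 ± 0.60 at passage 25, and passage 25 minus passage 20 was 1.82 ± 0.83 (edgeR adjusted p near 1, unadjusted p = 0.0475). That test called 0% of all genes. Neither the value of Chac1 at passage 25 (adjusted p = 0.878) nor that over both passages (0.87 ± 0.41, adjusted p = 0.45) passed.

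Ddit3, which encodes the transcription factor CHOP, had 46.4 and 56.0 CPM under B[a]P at passage 20, against 23.8 and 26.7 CPM under DMSO. At passage 25 it had 26.1 and 42.4 CPM under B[a]P, against 25.5 and 15.4 CPM under DMSO. Its log2 fold change over both passages was 0.88 ± 0.38 (edgeR adjusted p = 0.367). For Atf4 itself the B[a]P levels were 136 and 150.0 CPM at passage 20 and 181 and 226 CPM at passage 25, against 113 and 111 CPM and 169 and 100.2 CPM under DMSO. The groups did not overlap within either passage, yet the log2 fold change of 0.47 ± 0.42 did not pass (edgeR adjusted p = 0.913). Asns, which makes asparagine, was at log2 0.13 ± 0.38, the mitochondrial folate enzyme Mthfd2 at 0.31 ± 0.44 and Psat1 at -0.12 ± 0.36, with edgeR adjusted p-values near 1.

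Within single passages no member passed edgeR's test. At passage 20, 3 members had an unadjusted p below 0.05 and 1.23% of all genes were called, and DESeq2 called 3 members. At passage 25, 4 members had an unadjusted p below 0.05 and 0.0488% of all genes were called, and DESeq2 called 2 members. With the block at passage 25, 3 members passed at passage 20 (11.8% of all genes called) and 1 at passage 25, Ddit4 (2.38% called). Counting only whether both B[a]P libraries lay above both DMSO libraries, 7 of 10 members did so at passage 20, where 40.4% of all genes did. At passage 25, 8 of 10 did so, where 10.1% of all genes did.

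Further genes of the pathway were read from lists of its other parts. Of 7 amino acid transporters, 2 rose with B[a]P in control-grown cells and none fell, in the comparison that called 2.2% of all genes. These were the glycine transporter Slc6a9 (log2 2.50 ± 0.54, edgeR adjusted p = 0.0295) and the neutral amino acid transporter Slc1a4 (2.05 ± 0.29, adjusted p = 0.00322), while the arginine transporter Slc7a3 was at 0.86 ± 0.93. Slc6a9 was at 27.3 and 24.3 CPM under B[a]P at passage 20 and 46.0 and 101 CPM at passage 25, against 4.77 and 5.58 CPM and 8.96 and 13.8 CPM under DMSO. Of 3 tested genes among 5 other ATF4 targets, Gdf15, a secreted stress hormone, rose (2.22 ± 0.42, adjusted p = 0.0155), and Eif4ebp1 (0.70) and Vldlr (0.36) did not pass. Stc2 and Fgf21 were below the count filter.

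No gene passed edgeR's test in the other lists, nor do list medians carry a test. For 5 partner or downstream transcription factors the median log2 fold change was 0.67, with Nupr1 at 0.92, Cebpb at 0.81, Atf5 at 0.67 and Atf3 at 0.54 ± 0.23 (adjusted p = 0.367). For 9 enzymes of amino acid and 1-carbon synthesis the median was 0.18, with Mthfd1l at -0.96, Cth at 0.74 and Gpt2 at 0.46. For 13 tRNA synthetase and tRNA export genes it was 0.057, with Nars at 0.58, Sars at 0.42 and Xpot at -0.36. The 8 genes of the eIF2 kinase and phosphatase side had a median of -0.023, with Eif2ak4 at -0.58, Impact at 0.57, Eif2ak3 at 0.28 and the heme-regulated kinase Eif2ak1 at 0.16 ± 0.20. The 10 ER chaperone and XBP1 or ATF6 target genes, which mark other arms of the unfolded protein response, had a median of 0.27, with Dnajb9 at 0.86, Herpud1 at 0.67 and Hspa5 at 0.42. The transporters had a median of 0.57. With the block at passage 25, Atf3 (adjusted p = 0.00759), Dnajb9 (0.0355), Herpud1 (0.0105) and 1 further transporter also rose and Mthfd1l fell (0.00112). That fit called 15.3% of all genes, and 1 of 5, 2 of 10 and 1 of 9 genes of a list are near that share.

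In Cr(VI)-grown cells the same comparison of B[a]P with DMSO gave smaller values for most members, and none passed edgeR's test over both passages, where 0.941% of all genes were called. The median log2 fold change was 0.49, with 7 of 10 members above 0, and 3 had an unadjusted p below 0.05. DESeq2 called 3 members. The block at passage 25 also called 3 (10.5% of all genes), namely Ddit4 at log2 1.24 (adjusted p = 0.0144), Sesn2 at 1.36 (0.0358) and Ppp1r15a at 1.13 (0.0133).

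At passage 20, Ppp1r15a was at 212 and 229 CPM in Cr(VI)-grown cells under B[a]P, against 76.6 and 84.6 CPM under DMSO, the highest level of this gene in any group. The fold change was log2 1.45 ± 0.41 (edgeR adjusted p = 0.393). Ddit4 was at 136 and 153 CPM under B[a]P, against 82.7 and 71.7 CPM under DMSO (log2 0.90 ± 0.45). Its level under B[a]P was close to the 137 and 145 CPM of control-grown cells, while its level under DMSO was above theirs. Sesn2 was at 148 and 106 CPM under B[a]P, against 76.2 and 29.6 CPM under DMSO, so its duplicates under DMSO differed by more than 2-fold. Of those duplicates, replicate 2 had a fibroblast marker sum of 398 CPM and replicate 1 of 811 CPM, and the part of this difference was not tested. Ddit3 was at 62.2 and 80.6 CPM under B[a]P, against 25.3 and 68.8 CPM under DMSO, and its groups overlapped. Chac1 went the other way, at 1.54 and 1.68 CPM under B[a]P, against 2.41 and 3.69 CPM under DMSO (log2 -0.91 ± 0.59, edgeR adjusted p near 1).

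At passage 25, Ddit4 was at 143 and 320 CPM in Cr(VI)-grown cells under B[a]P, against 83.5 and 74.8 CPM under DMSO. This gave log2 1.55 ± 0.45 (edgeR adjusted p = 0.457), with no overlap. Sesn2 was at 43.8 and 102 CPM under B[a]P, against 22.9 and 29.5 CPM under DMSO (log2 1.47 ± 0.58), also without overlap. Trib3 was at 28.0 and 209 CPM under B[a]P, against 43.0 and 81.0 CPM under DMSO, so that replicate 1 lay below and replicate 2 above both DMSO libraries. Asns was at 43.7 and 143 CPM under B[a]P, against 94.5 and 170.1 CPM under DMSO, and was lower under B[a]P in both replicates. Psat1 was at 174 and 440.3 CPM under B[a]P, against 310.0 and 492 CPM under DMSO. For these 3 genes the lowest of the 4 values was in B[a]P replicate 1. Its group had the lowest correlation between duplicates (0.886), a value that does not tell which of the 2 departs. Without B[a]P replicate 1 the log2 fold change of Asns over both passages was 0.006, against -0.30 with it. That omission sets B[a]P replicate 2 against both DMSO libraries of passage 25, and within the pair of replicate 2 Asns differed by -0.25. The B[a]P replicate 1 library had a hepatocyte marker sum of 2146 CPM and 17173 detected genes. In the other replicate 1 libraries of passage 25 these were 1643 to 4526 CPM and 16049 to 16491 genes. What part this had in the levels of B[a]P replicate 1 was not tested.

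No member passed in single passages, where 0.0418% of all genes were called at passage 20 and 0.0558% at passage 25. At passage 20, 2 members and 701 of all genes had an unadjusted p below 0.05. DESeq2 called 1 member and 157 genes in all. At passage 25, 2 members and 829 of all genes had an unadjusted p below 0.05. DESeq2 called 0 members and 151 genes in all there, and the block at passage 25 called Ddit4 (4.36% of all genes). Both B[a]P libraries lay above both DMSO libraries for 5 of 10 members at passage 20 (17.1% of all genes) and for 6 of 10 at passage 25 (12.1%). The difference of the B[a]P effects, Cr(VI)-grown minus control-grown over both passages, was negative for all 10 members, from -0.88 ± 0.58 for Chac1 to -0.019 ± 0.60 for Atf4. The median was -0.39, and that of all genes was 0.094, with 58% above 0. None of these differences passed edgeR's test, none had an unadjusted p below 0.05, and 0% of all genes were called. Signs of members read in the same libraries are not independent. The contrast also rests on unlike Cr(VI)-grown duplicates. They differed over 2-fold in 32.2% of all genes under DMSO at passage 20 and in 56.7% under B[a]P at passage 25.

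**Figure D2:**
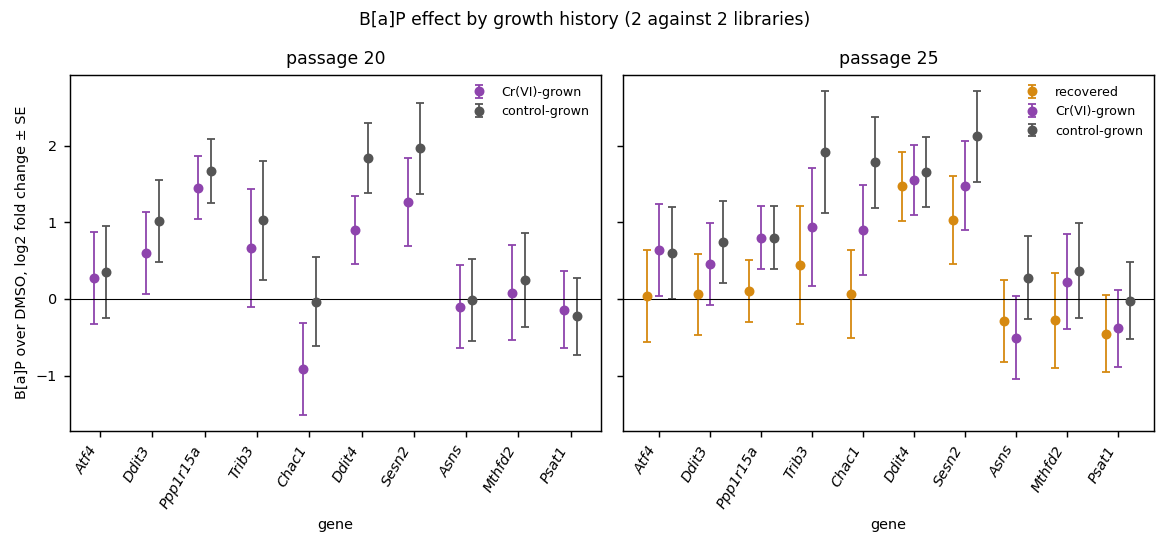
Log2 fold change of B[a]P over DMSO with its standard error (edgeR, 2 against 2 libraries) for each gene, by growth history, at passage 20 and at passage 25. Ddit4 lay at 1.47 in recovered, 1.55 in Cr(VI)-grown and 1.66 in control-grown cells of passage 25, while Chac1 lay at 0.063, 0.90 and 1.78.

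Under DMSO, cells grown with Cr(VI) were set against control-grown cells, to see what Cr(VI) alone goes with. No member passed at passage 20, where values ran from log2 1.13 ± 0.58 for Sesn2 to -0.29 ± 0.59 for Chac1. The Cr(VI)-grown DMSO duplicates there differed over 2-fold in 32.2% of all genes, against 1.58% to 2.45% in the other groups of passage 20. Replicate 1 correlated at 0.987 with a control-grown DMSO library and at 0.942 with its own duplicate. Replicate 2 was most like a Cr(VI)-grown B[a]P library (0.975), so means of this group join unlike libraries. Ppp1r15a had 76.6 and 84.6 CPM with Cr(VI), against 42.7 and 40.7 CPM in control-grown cells (log2 0.95 ± 0.41, edgeR adjusted p = 0.735). Ddit4 was at 82.7 and 71.7 CPM, against 37.5 and 41.2 CPM (0.97 ± 0.45, adjusted p = 0.787). Sesn2 was at 76.2 and 29.6 CPM, against 24.1 and 24.1 CPM (adjusted p = 0.849), and Ddit3 differed by 0.90 ± 0.53 with overlapping groups. Ppp1r15a, Ddit4 and Sesn2 were the 3 of 10 members whose Cr(VI)-grown libraries both lay above both control-grown ones, where 24% of all genes did so. Chac1, Mthfd2 and Psat1 lay wholly below, where 25.2% of all genes did so, and both shares are near those of the members. At passage 25 the log2 fold changes were 0.24 ± 0.41 for Ppp1r15a, 0.31 ± 0.45 for Ddit4 and 0.54 ± 0.57 for Sesn2. Over both passages, at passage 20 and at passage 25, edgeR called no member and 0% of all genes. At passage 20, 54 of all genes passed with DESeq2 and 97 with edgeR without the Cr(VI)-grown DMSO replicate 1 library, none of them a member. The numbers of members with an unadjusted p below 0.05 were 0, 2 and 0 in these comparisons, and DESeq2 called none of the 10. The counts of all genes at that unadjusted level were 685, 907 and 152.

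Mthfd2 was singled out after its values were seen, since it differed the same way in every setting. In Cr(VI)-grown cells under DMSO it was at 29.8 and 29.5 CPM at passage 20 and 18.2 and 16.1 CPM at passage 25, against 34.1 and 36.8 CPM and 25.9 and 22.3 CPM in control-grown cells. Under B[a]P it was at 32.1 and 30.6 CPM and 16.5 and 23.5 CPM, against 42.5 and 41.5 CPM and 26.1 and 36.2 CPM. The Cr(VI)-grown libraries lay below the control-grown ones in all 4 settings, by log2 -0.38 ± 0.44 under DMSO and -0.53 ± 0.44 under B[a]P (edgeR adjusted p = 0.895 and near 1). Under DMSO 25.2% of all genes lay wholly below at passage 20 and 10.5% at passage 25, and under B[a]P 31.5% and 4.12%. The share of all genes below in all 4 settings was not counted. Under B[a]P the fitted log2 values of Chac1 (-0.78 ± 0.41), Asns (-0.40 ± 0.38) and Psat1 (-0.38 ± 0.36) were also below 0. No member passed under B[a]P, 0% of all genes were called, and 0 members had an unadjusted p below 0.05.

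Recovered cells were compared with control-grown cells of passage 25, to read these genes after 5 passages without Cr(VI). The 2 pairs of equal replicate number gave different answers. In the pair of replicate 1 under DMSO all 10 members were higher in recovered cells, with a median log2 difference of 1.77. In the pair of replicate 2 the median was 0.18 and no member differed by more than 0.52. The medians over all genes were 0.005 and 0.

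In Atf4 the recovered DMSO libraries had 473 and 89.8 CPM, against 169 and 100.2 CPM in control-grown cells. Replicate 1 was thus more than 2-fold above its partner and replicate 2 a little below its own (log2 1.49 and -0.16). Chac1 had 37.0 and 7.40 CPM in recovered cells, against 3.05 and 5.15 CPM, for log2 differences of 3.57 and 0.52. Trib3 had 222 and 81.9 CPM in recovered cells, against 27.9 and 69.1 CPM (2.99 and 0.25). These are the largest values of Atf4 and Chac1 in any library.

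Sesn2 had 83.6 and 26.1 CPM in recovered cells, against 15.3 and 20.6 CPM in control-grown cells (log2 2.45 and 0.34). The biosynthetic enzymes showed the same split between the pairs. Mthfd2 had 124.5 and 22.2 CPM, against 25.9 and 22.3 CPM (2.26 and -0.009). Asns had 266 and 187 CPM, against 72.4 and 176 CPM (1.87 and 0.088). Ppp1r15a, Ddit3 and Ddit4 followed with log2 differences of 1.67, 1.30 and 0.75 in the pair of replicate 1 and 0.23, 0.31 and -0.14 in that of replicate 2. Psat1 differed least in the pair of replicate 1. It had 405 and 704 CPM in recovered cells, against 280.2 and 645 CPM (0.53 and 0.13).

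A log2 difference above 1 was reached by 8 of 10 members in the pair of replicate 1, where 3.6% of all genes reached it, and by 0 of 10 in the pair of replicate 2, where 2.75% did. Under B[a]P the counts were 4 of 10 (Atf4 1.16, Chac1 1.30, Sesn2 1.16 and Mthfd2 1.81) where 7.06% of all genes reached it, and 0 of 10 where 1.96% did. Recovered B[a]P cells had Atf4 at 404 and 173 CPM, against 181 and 226 CPM in control-grown cells. They had Mthfd2 at 91.4 and 29.4 CPM, against 26.1 and 36.2 CPM, and Chac1 at 29.0 and 17.5 CPM, against 11.7 and 16.4 CPM.

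**Figure D3:**
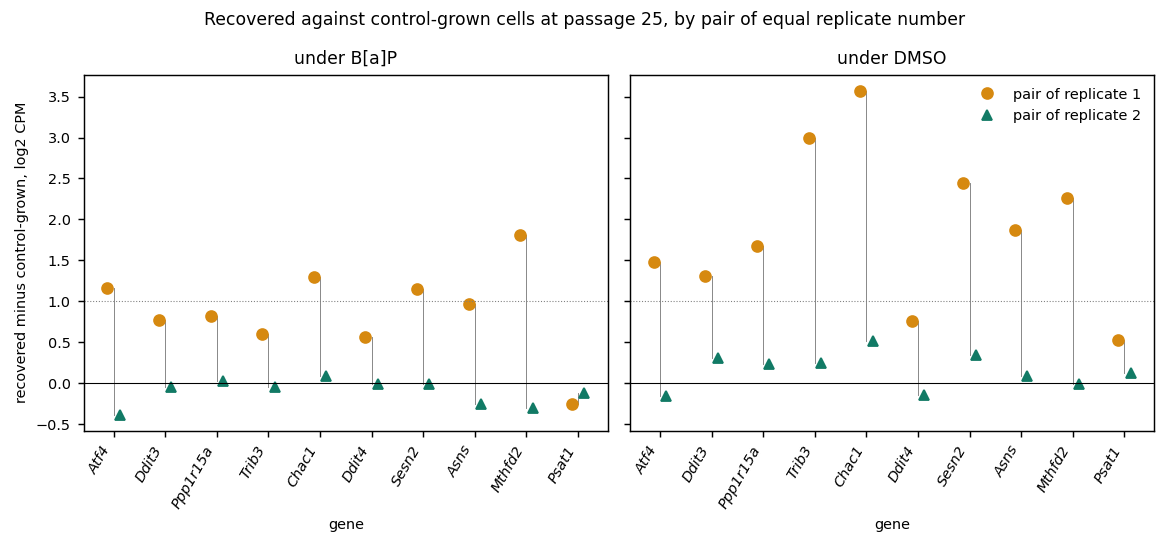
Log2 difference in CPM, recovered minus control-grown cells of passage 25, for each gene in the pair of replicate 1 (orange circles) and the pair of replicate 2 (green triangles), under B[a]P on the left and under DMSO on the right. The dotted line marks a log2 difference of 1, and under DMSO the pair of replicate 1 runs up to 3.57 for Chac1, and that of replicate 2 stays between -0.16 and 0.52.

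Both recovered libraries of replicate 1 lay above the other 10 libraries of passage 25 for 6 of 10 members (Atf4, Ddit3, Ppp1r15a, Chac1, Asns and Mthfd2), where 8.83% of all genes did so. The count describes 1 replicate number and carries no test. Mean differences of the 2 recovered and 2 control-grown DMSO libraries did not pass edgeR's test for any member. Chac1 reached 2.44 ± 0.61, Trib3 1.65 ± 0.79, Sesn2 1.61 ± 0.58, Mthfd2 1.60 ± 0.63 and Atf4 1.06 ± 0.61 on the log2 scale (adjusted p near 1). There 4 members and 146 of all genes had an unadjusted p below 0.05. DESeq2 called none of the 10, and edgeR called 0% of all genes. Without the recovered DMSO replicate 1 library the values were 0.86 for Chac1, 0.76 for Trib3, 0.54 for Sesn2, -0.12 for Mthfd2 and -0.58 for Atf4. They set recovered replicate 2 alone against both control-grown libraries, which breaks the pairing by replicate number. Within the pair of replicate 2 these genes differed by 0.52, 0.25, 0.34, -0.009 and -0.16. Under B[a]P the members' mean differences ran from -0.17 for Psat1 to 0.96 for Mthfd2, with none passing, none at an unadjusted p below 0.05 and 0% of all genes called. Against Cr(VI)-grown DMSO cells of passage 25 the pairs again parted, with medians of 1.8 in replicate 1 and 0.041 in replicate 2. That test also called no member and 0% of all genes, and gave 4 members and 195 of all genes an unadjusted p below 0.05. Recovered, Cr(VI)-grown and B[a]P comparisons of passage 25 share control libraries and are not independent.

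Other ATF4-linked genes were read in the same pairs under DMSO. In the pair of replicate 1 all 9 amino acid and 1-carbon synthesis enzymes were higher in recovered cells (median log2 1.68), as were all 13 tRNA synthetase and export genes (0.95), all 5 transcription factors (1.26) and 5 of 7 transporters (1.01), where 50.4% of all genes were higher. In the pair of replicate 2 these medians were 0.15, 0.095, -0.13 and -0.033. The ER chaperone and XBP1 or ATF6 list had medians of -0.023 and 0.094, and the eIF2 kinase and phosphatase side 0.039 and -0.18. Both recovered replicate 1 libraries lay above the other 10 for 4 of 9 synthesis enzymes, 7 of 13 tRNA genes, 2 of 5 transcription factors, 1 of 7 transporters, 1 of 8 genes of the eIF2 side and 1 of 10 of the ER list, where 8.83% of all genes did so. Cth, which makes cysteine, was at 23.3 CPM under B[a]P and 19.3 CPM under DMSO in recovered replicate 1, against 0.457 to 2.47 CPM in the other 10 libraries of passage 25. Nupr1, a stress-induced chromatin protein, was at 54.2 and 65.7 CPM, against 3.45 to 13.1 CPM. The mitochondrial folate enzyme Aldh1l2, singled out after its values were seen, was at 37.8 and 39.5 CPM, against 2.37 to 6.45 CPM. Atf3 was not among them, at 17.1 and 22.4 CPM, against 13.2 to 27.2 CPM, nor was Eif2ak1, at 41.2 and 29.7 CPM, against 19.9 to 34.8 CPM.

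In recovered replicate 1 the fibroblast or stellate marker sum was 1120 CPM under B[a]P and 1502 CPM under DMSO, against 725 to 1053 CPM in the other replicate 1 libraries of passage 25 and 1225 to 1530 CPM in replicate 2. Of these markers Dcn, a matrix proteoglycan, was higher, at 914 and 1294 CPM against 407 to 885 CPM in the other 10 libraries of passage 25, while Col1a1, a collagen, lay below them at 141 and 130 CPM against 236 to 681 CPM. Pdgfrb and Col3a1 lay within the range of the others. The hepatocyte marker sum was 1643 and 2431 CPM, against 2146 to 4526 CPM in the other replicate 1 libraries, and macrophage markers summed to 25.9 and 20.1 CPM. The part of these in the stress-gene levels was not tested. In bulk libraries a change in RNA per cell and a change in the share of cells of one kind cannot be told apart.

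**Figure D4:**
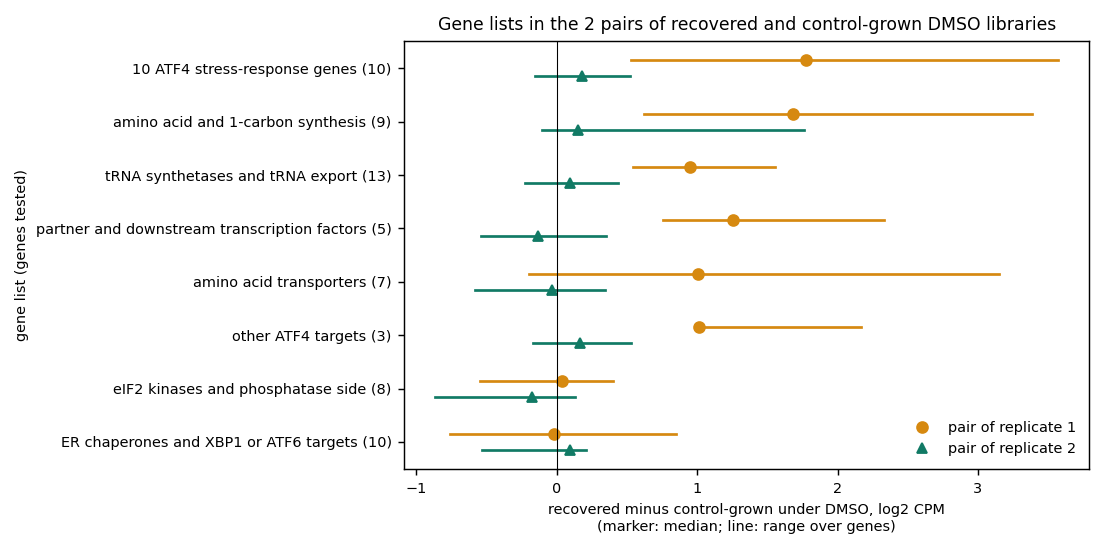
Median (marker) and range (line) of the log2 difference in CPM, recovered minus control-grown cells under DMSO, over the genes of each list, for the pair of replicate 1 (orange) and the pair of replicate 2 (green). ATF4-linked lists had medians of 0.95 to 1.77 in replicate 1, while the eIF2 and ER chaperone lists were near 0 in both pairs.

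B[a]P was compared with DMSO in recovered cells too. No member passed edgeR's test, where 0.0558% of all genes were called. An unadjusted p below 0.05 was found for 1 member, Ddit4, and for 526 of all genes. DESeq2 called none of the 10. Ddit4 was at 259 and 228 CPM under B[a]P, against 129 and 46.8 CPM under DMSO (log2 1.47 ± 0.45, edgeR adjusted p = 0.646). Sesn2 was at 125.4 and 99.4 CPM under B[a]P, against 83.6 and 26.1 CPM under DMSO (1.04 ± 0.57). These were the only 2 of the 10 genes whose B[a]P libraries both lay above both DMSO libraries, where 7.57% of all genes did. By pair, the members' median log2 difference was -0.36 in replicate 1 and 1.02 in replicate 2, against 0.58 and 1.31 in control-grown cells. In replicate 1 the values of Atf4 (404 CPM under B[a]P, 473 CPM under DMSO), Trib3 (166 and 222 CPM), Chac1 (29.0 and 37.0 CPM) and Ddit3 (44.5 and 63.1 CPM) were lower under B[a]P. In replicate 2 they were higher, for example Trib3 at 248 CPM under B[a]P and 81.9 CPM under DMSO. The effect in recovered minus that in control-grown cells was negative for all 10 members, from -1.72 ± 0.82 for Chac1 to -0.19 ± 0.63 for Ddit4. The median was -0.67, and that of all genes was 0.053, with 56.1% above 0. Members were read in the same libraries, so their signs are not independent. No member passed edgeR's test, none had an unadjusted p below 0.05, and 0% of all genes were called. These differences hold the same recovered DMSO replicate 1 library, with the opposite sign, as the comparison of growth histories. Without that library the B[a]P fold changes in recovered cells were log2 2.38 for Ddit4, 2.11 for Sesn2, 1.68 for Atf4 and 1.65 for Chac1. These values set both B[a]P libraries against DMSO replicate 2 alone, so they break the pairing by replicate number. Within the pair of replicate 2 the differences of these genes were 2.28, 1.93, 0.95 and 1.23.

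Passage 25 was compared with passage 20 in control-grown DMSO cells. By sample name the passages are also separate sets of libraries, so the effects of passage and of library set cannot be told apart. No member passed edgeR's test, where 0.558% of all genes were called; none had an unadjusted p below 0.05, and DESeq2 called none of the 10. Asns was at 72.4 and 176 CPM at passage 25, against 62.5 and 60.3 CPM at passage 20 (log2 1.02 ± 0.55, edgeR adjusted p = 0.692). Psat1 was at 280.2 and 645 CPM, against 249 and 249 CPM (0.89 ± 0.51, adjusted p = 0.719). In both genes the replicate 2 library carried most of the difference, and without it Asns was at 0.24. Replicate 2 was above replicate 1 for Psat1 in all 6 groups of passage 25, by log2 0.62 to 1.34, and for Asns in the 4 groups of Cr(VI)-grown and control-grown cells. These libraries are also those with the higher hepatocyte marker sums. The part of the replicate number in the passage difference was not tested.

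The 10 genes did not vary as 1 block. Correlations were taken over the 20 libraries after the mean of each of the 4 sets of equal passage and replicate number had been subtracted from log2 CPM, so they describe differences within a set. They share libraries and carry no test. Trib3 was closest to the mean of the other 9 genes (Pearson r 0.96), then Atf4 (0.915), Sesn2 (0.845) and Ddit3 (0.824), and Psat1 was furthest (0.03). Psat1 still correlated at 0.706 with Asns and at 0.468 with Mthfd2. The closest pairs were Ddit4 with Sesn2 (0.929), Sesn2 with Ppp1r15a (0.903) and Ddit3 with Ppp1r15a (0.898), followed by Atf4 with Trib3 (0.878) and Asns with Mthfd2 (0.867). Ddit4 and Asns, by contrast, were at 0.071. Among all other genes, those with a pattern much like the mean of the 10 included Rmc1 (0.943), the transporter Slc6a9 (0.938), Ctsl (0.924) and Arhgef2 (0.919).

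**Figure D5:**
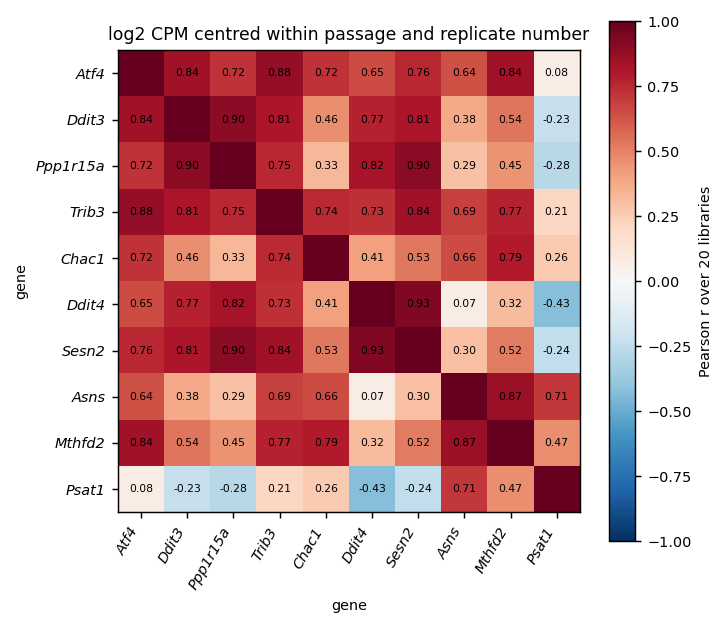
Pearson correlation of log2 CPM between the genes over 20 libraries, centred within the 4 sets of passage and replicate number, with positive values in red and negative ones in blue. Ddit4, Sesn2 and Ppp1r15a correlate with each other at 0.82 to 0.93, Asns with Mthfd2 at 0.87, and Psat1 is negative against Ddit3, Ppp1r15a, Ddit4 and Sesn2. Psat1 is at 0.71 with Asns and 0.47 with Mthfd2.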

How the data were processed

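RNA was extracted from Hepa-1 cells with a column kit and sequenced from standard Illumina libraries, per the labels' protocols. The cells grew in medium with 5% serum and were passaged every 3 days. The deposited values are whole-number read counts per Entrez gene ID, not normalized, in 1 table of 20 libraries. Tools named in the submitters' processing notes are TopHat, DESeq, bcl2fastq and CASAVA 1.8, with the mm10 genome build. The sources used here do not give the counting program, the annotation or the use of strand, so reads of overlapping genes may be shared. Of 23373 IDs, 23275 matched a RefSeq symbol.

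The quasi-likelihood test of edgeR 4.0.16 (R 4.3.3) was run on all 20 libraries with 1 coefficient per group, after filterByExpr and TMM scaling, with Benjamini-Hochberg adjustment over 14343 genes and a threshold of 0.05. Standard errors are the log2 fold change divided by the square root of F. CPM values use TMM-scaled library sizes, and log2 CPM used a prior count of 2. Pair differences are of log2 CPM. DESeq2 1.42.0 was an alternative. Replicate numbers come from the labels. At passage 25 the differences between replicates correlated between groups at 0.81 to 0.92 (15 correlations), so the numbers paired the libraries. At passage 20 there were 6 correlations. Those with the control-grown DMSO group, whose duplicates were close to sampling noise, were -0.002 to 0.07. Those among the other groups were 0.331 to 0.59, so whether the numbers paired libraries at passage 20 was not settled. A block for passage 25 alone, where the pairing was clear, was added after the data had been seen. The fit was tested on counts simulated with levels and spreads estimated from these libraries. Shifts between replicates were put in at both passages, although the pairing at passage 20 was not settled. Without a block the fit missed most of the changes put in, and in recovered cells all of them. With the replicate block it missed fewer, but still some. A gene that did not pass may therefore still have changed.

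The 10 members and all lists were chosen with earlier results of these data known. The text names all 10 members, from each list the genes that passed in control-grown cells under B[a]P (passages combined) or else those with the largest change there, up to 3, then Atf3, Eif2ak1, Cyp1a1 and the 5 genes most correlated with the members, of which 1 is not reported here. Exon lengths for CPM per kilobase were taken from the reference annotation, and promoter sequences from RefSeq (GRCm38.p6).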

Additional observations from a re-analysis of the deposited data

Results flagged for a closer look

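In 2 comparisons a gene differed one way in both libraries at passage 20 and the other way in both at passage 25. Chac1 under B[a]P in Cr(VI)-grown cells differed from DMSO by -0.89 on the log2 scale at passage 20 and by 0.90 at passage 25, a gap of -1.79. Atf4 in Cr(VI)-grown against control-grown cells under B[a]P differed by 0.28 at passage 20 and by -0.35 at passage 25, a gap of 0.63. Neither gap was tested, and the passages are also separate sets of libraries.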

How the results depend on the processing

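The sign of a member's fold change was compared only where it passed in either fit, and none turned. In control-grown cells under B[a]P, passages combined, 3 members passed, 4 with either block and 0 to 2 without 1 library. In what follows, the count of all genes called by a fit stands in brackets. At passage 20 the member count was 0. It was 3 with the replicate block (1917), that at passage 25 only (1688), a fit within passage 20 (1248) and DESeq2 (587). At passage 25 it was 0, but 2 with the replicate block (388), 1 with that at passage 25 (341) and 2 with DESeq2 (98). In Cr(VI)-grown cells it was 0 with passages combined, but 3 with the replicate block (1620), that at passage 25 (1501) and DESeq2 (470). At passage 20 it was 0 there, but 2 in a fit within passage 20 (195) and 1 with DESeq2 (157). At passage 25 it was 0, but 1 with the replicate block (782) and with that at passage 25 (626). In the comparisons not listed here the blocks left the member count at 0. Without the count filter Ppp1r15a was at adjusted p = 0.0778 (edgeR), and DESeq2-type size factors in edgeR changed no call. Plain library totals moved 33 of 100 group levels by more than 1 SD.

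Counts of all genes moved more. In control-grown cells under B[a]P, passages combined, 316 genes passed, but 178 without the filter, 2399 with the replicate block, 2199 with the block at passage 25 only, 766 with DESeq2 and 68 to 150 without 1 library. For Cr(VI)-grown cells the counts were 135, 70, 1620, 1501, 470 and 27 to 90 in the same order. At passage 20 alone, 177 genes of control-grown cells became 65 without the filter, 1917 with the block, 587 with DESeq2 and 2 to 6 without 1 library, and 6 genes of Cr(VI)-grown cells became 2, 437, 157 and 0 to 13. At passage 25 alone, 7 genes in control-grown, 8 in Cr(VI)-grown and 8 in recovered cells became 388, 782 and 215 with the block, 98, 151 and 103 with DESeq2, and 0 in fits within that passage. Passage 25 against 20 gave 80, but 43 without the filter, 936 with the block, 328 with DESeq2 and 0 to 7 without 1 library. Cr(VI) growth under DMSO gave 0 with passages combined, but 531 with the block, 76 with that at passage 25 only and 14 with DESeq2. At passage 20 alone it gave 0, but 414, 146 and 54 with these, and 97 when the first DMSO library grown with Cr(VI) was left out. The causes of these changes were not tested. With 2 libraries a group, leaving 1 out leaves a lone library whose spread is taken from the other groups. At passage 25 it also breaks the pairing by replicate number. The lowest-count member, Chac1, had 1.54 CPM in its lowest library, so its fold changes rest on the fewest reads.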
